A study of Mus musculus with 52 samples.

Results

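The genes described here encode voltage-gated and potassium channels and their auxiliary subunits: the potassium channel families (symbols that start with Kcn), the pore and auxiliary subunits of calcium channels (Cacna, Cacnb, Cacng), the sodium channels (Scn followed by a number) and the hyperpolarization-activated cation channels (Hcn). They were taken by these symbol stems from the 6 deposited tables, leaving out the noncoding RNA gene Kcnq1ot1, which gave 138 of the 23697 genes listed in each table. The study profiled mouse spinal cord by ribosome affinity purification, in which a ribosomal protein tagged with EGFP is made in chosen cells and the transcripts bound to it are pulled down with an antibody and sequenced. There were 52 libraries in 13 groups.

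At disease onset, 4 SOD1 G37R and 4 Non-Tg (non-transgenic control) libraries came from motor neurons, and 4 SOD1 G37R and 6 Non-Tg libraries from astrocytes, both with no age in months in the labels. Oligodendrocytes gave 4 SOD1 G37R and 5 Non-Tg libraries at 8 months (onset) and 3 SOD1 G37R, 3 SOD1 G85R and 5 Non-Tg libraries at 11 months (early symptomatic stage). Samples with the source spinal cord gave 4 SOD1 G37R and 4 Non-Tg libraries at 8 months and 3 of each at 11 months. All onset groups are labelled male. Each 11-month group holds both sexes, with 1 male and 2 female libraries, except the oligodendrocyte controls, with 2 male and 3 female. SOD1 encodes a superoxide dismutase, and mice that carry these mutant forms are models of amyotrophic lateral sclerosis. The promoter that drives the tag in each cell type is not given in the sources used here, and the labels name the same immunoprecipitation for every sample, the spinal cord ones included. The design text speaks of biological replicates, but no label ties a library to an animal of its own, and the p-values below therefore measure the spread between libraries.

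Voltage-gated channels open or close with the membrane potential. Sodium channels start the action potential, calcium channels couple it to transmitter release and signalling, and potassium channels end it and set the resting potential and the firing rate. In the spinal cord, motor neurons depend on dense sodium and potassium channels at the axon initial segment and the nodes of Ranvier, while astrocytes and oligodendrocytes rest on inwardly rectifying and leak potassium channels and take up the potassium that active axons release.

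The labelled cell types were checked against marker genes. The summed level of 7 motor neuron markers was 2194 to 2569 FPKM equivalents (FPKM is read abundance per length of transcript and per library size; the tables were brought to a common scale) in motor neuron controls, against 126.5 to 200.5 in 8-month spinal cord controls. The sum of 7 oligodendrocyte markers was 33916 to 39222 in 8-month oligodendrocyte controls, against 12919 to 15252 in the same spinal cord controls, and that of 7 astrocyte markers was 7204 to 9660 in astrocyte controls, against 2036 to 2530. The purified glial libraries also held neuronal transcripts: 5 pan-neuronal markers summed to 778 to 1117 in astrocyte controls and to 1507 to 1926 in 8-month oligodendrocyte controls, against 3912 to 4369 in spinal cord controls. Markers of the other glial type were read too: the oligodendrocyte markers summed to 6221 to 8781 in astrocyte controls. The astrocyte markers summed to 3333 to 3761 in 8-month oligodendrocyte controls, above the spinal cord range. At 11 months this sum was carried by Glul. Channel genes high in astrocytes lay below spinal cord in the 8-month oligodendrocyte controls, such as Kcnip3 (4.59 against 31.2) and Kcnj16 (2.80 against 26.7). The source of these transcripts was not tested. Some libraries stood apart in the channel genes. Control library 3 of the 8-month oligodendrocytes was the highest of its group for 46 of 76 tested channel genes, and its sum of 5 markers of other neurons was 260.3, against 94.7 to 159.7 in the other 4 controls. Among the G37R libraries of that age, library 2 was the highest for 51 of 76 and library 4 the lowest for 45. At 11 months, G85R library 1 was the highest of its group for 43 of 78. Control library 5 of the 11-month oligodendrocytes was the highest for 55 of 78, G37R library 1 there was the lowest for 56 of 78, G37R library 3 of the motor neurons was the lowest for 51 of 86, and control library 1 of the 11-month spinal cord was the lowest for 69 of 101.

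Control motor neurons had the largest share of the channel transcripts in sodium channel beta subunits, astrocytes in inward rectifiers, and oligodendrocytes in Hcn genes. The 4 Scn beta genes made up 27.6 ± 0.943% of the summed level of all 138 genes in motor neuron controls (SD, n = 4), against 17.5 ± 0.483% in 8-month spinal cord controls (n = 4). The 15 Kcnj genes, the inward rectifiers, made up 21.5 ± 3.70% in astrocyte controls (n = 6), against 11.1 ± 0.329% in spinal cord. The 4 Hcn genes made up 29.0 ± 3.07% in 8-month oligodendrocyte controls (n = 5), against 5.48 ± 0.377% in spinal cord. The summed level itself also lay above spinal cord for Scn beta genes (1030 against 558) and Hcn genes (475 against 175). For Kcnj genes only the share was larger, at a summed level of 315 ± 79.0 in astrocytes and 354 ± 16.4 in spinal cord. The tables were normalized separately, so these levels are set side by side as a description with no test.

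**Figure D1:**
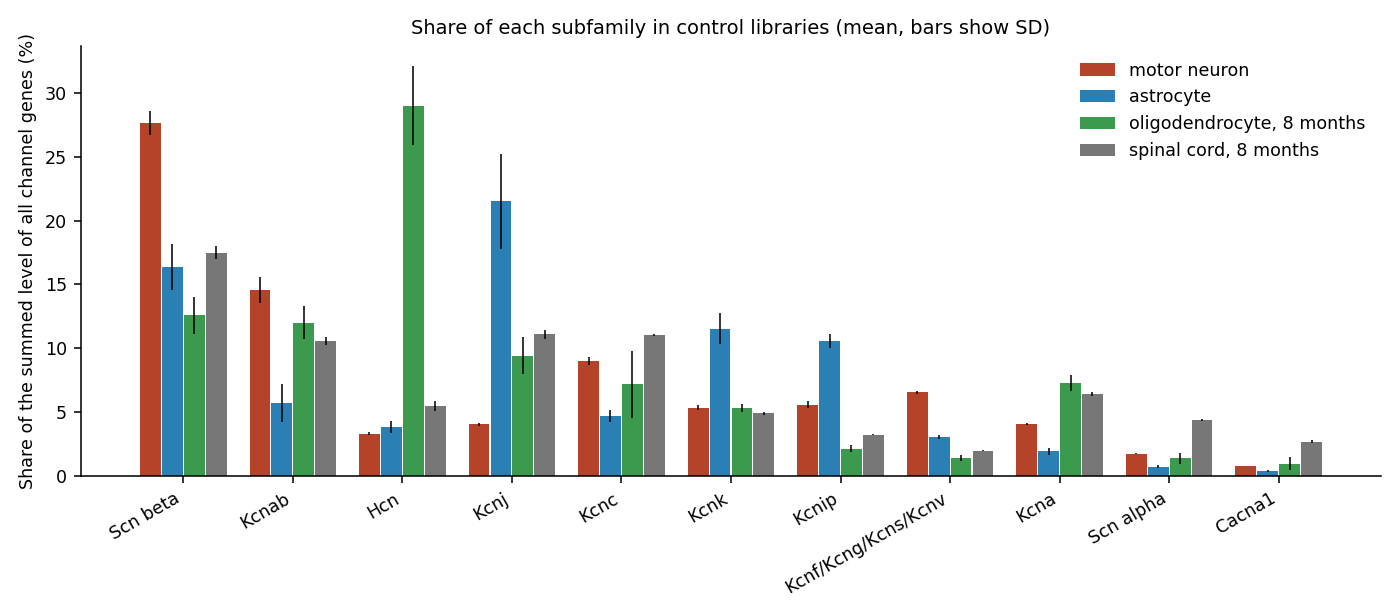
Share of the summed level of all 138 channel genes (%, vertical axis) held by each of 11 subfamilies (horizontal axis) in control libraries of motor neurons, astrocytes, 8-month oligodendrocytes and 8-month spinal cord. Columns are means and bars are SDs over libraries. Scn beta genes hold 27.6% in motor neurons, Kcnj genes 21.5% in astrocytes and Hcn genes 29.0% in oligodendrocytes.

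A single paralog held most of several subfamilies, and which one it was differed between cell types. Among the tandem-pore leak channels (Kcnk), Kcnk3, an acid-sensitive leak channel, was the highest in motor neuron controls at 82.2 ± 7.68, Kcnk1 in astrocyte controls at 139 ± 31.8 (82.6% of the summed Kcnk level) and Kcnk13 in 8-month oligodendrocyte controls at 48.6 ± 4.95. Among the potassium channel-interacting proteins (Kcnip), which bind Kv4 channels, the highest was Kcnip4 in motor neurons (112 ± 6.65), Kcnip3 in astrocytes (130 ± 15.99, or 84.8% of the Kcnip sum) and Kcnip1 in oligodendrocytes (15.98). In oligodendrocytes the libraries of Kcnip1 overlapped those of the next one, Kcnip4 (mean 11.9), and both means lay below those of spinal cord (30.4 and 29.4). Among the inward rectifiers it was Kcnj14 in motor neurons (52.9% of the Kcnj sum), while Kcnj10, the main glial inward rectifier, held 76.1% in astrocytes and 85.8% in oligodendrocytes. In those oligodendrocyte controls astrocyte markers summed to 3333 to 3761, while Kcnj16, high in astrocytes, averaged 2.80, against 26.7 in spinal cord. The part of other cells in the Kcnj10 level was not tested. Hcn2 held 99.2% of the Hcn sum in oligodendrocytes and 84.1% in motor neurons. Other ranks were shared: Kcnab2 (a cytoplasmic beta subunit of Kv1 channels), Cacng7 (of the family that accompanies calcium channels and AMPA receptors), Kcnh2 and Cacna2d3 led their subfamilies in motor neurons, astrocytes, oligodendrocytes and spinal cord alike. In this order they averaged 48.2, 44.4, 8.51 and 6.61 in astrocytes and 123, 46.6, 15.6 and 13.1 in 8-month oligodendrocytes. In spinal cord they averaged 207, 135, 41.7 and 32.2. The glial libraries also held neuronal transcripts, whose part in these ranks was not tested.

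A gene was counted as higher in a purified cell type when its control mean was at least 2-fold that of spinal cord controls of the same stage and its lowest library lay above the highest spinal cord library. In motor neurons this held for 12 of 103 channel genes with a mean of at least 1 in either group, against 18.2% of all genes. Kcnj14, a Kir2-type inward rectifier, had 79.2, 84.8, 77.0 and 77.0 FPKM equivalents in motor neuron controls, against 5.44 to 6.47 in spinal cord controls, a 13.6-fold ratio of means. Kcnmb4, the neuronal beta subunit of the large-conductance BK channel, averaged 81.8 against 7.46 (10.96-fold), and the pore gene of that channel, Kcnma1, averaged 4.08 in motor neurons and 11.1 in spinal cord. Kcng4, a silent subunit that assembles with Kv2 pores, averaged 216 against 38.5 (5.62-fold), and Kcnk3 82.2 against 15.5 (5.30-fold). The others included Kcng1, Kcnip4, Kcnj12, Kcnip1, Kcnab1, Kcnk12 and Kcnn1, at ratios between 3.82 for Kcng1 and 2.22 for Kcnn1. In the opposite direction 44 of the 103 were at least 2-fold lower without overlap, against 30.004% of all genes. They included the glial pair Kcnj10 (6.08 in motor neurons against 247 in spinal cord) and Kcnj16 (0.756 against 26.7).

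In astrocyte controls 6 of 104 channel genes were higher than in spinal cord by the same rule, against 21.7% of all genes, and 83 were lower, against 29.5%. Kcne1l, a small accessory subunit of voltage-gated potassium channels also called Kcne5, averaged 70.6 ± 7.66 in astrocytes against 12.4 in spinal cord (5.70-fold), and lay at 2.56 in motor neurons and 0.786 in 8-month oligodendrocytes. Kcnip3, a calcium sensor also known as DREAM, averaged 130 ± 15.99 against 31.2 (4.15-fold), and lay at 3.17 in motor neurons and 4.59 in oligodendrocytes. Kcnk7, a tandem-pore gene, averaged 4.06 against 0.305 (13.3-fold) and was near 0 in the other purified types. It reached the minimum of 1 only in astrocytes, so this ratio rests on a value near 0, and with 1 added to both means its log2 ratio (1.95) was below that of Kcne1l (2.42). Kcnk1 (139 against 60.0), Kcnj16, the Kir5.1 subunit that pairs with Kcnj10 (57.6 against 26.7), and Kcnn2, a calcium-activated SK channel (38.2 against 17.8), made up the rest. Kcnj10 itself averaged 239 ± 62.3 in astrocytes and 247 in spinal cord, so it did not meet the rule.

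In oligodendrocytes 4 of 104 channel genes at 8 months and 4 of 103 at 11 months were higher than in spinal cord, against 13.4% and 10.7% of all genes, and they were the same genes at both ages. Hcn2, a cation channel opened by hyperpolarization, had 477, 504, 489, 414 and 472 FPKM equivalents in the 8-month controls, against 144 to 176 in spinal cord (3.04-fold). It was the highest of all 138 genes in these libraries. At 11 months it averaged 385 ± 20.9 against 112 (3.44-fold). Kcnk13, a halothane-inhibited leak channel also known from microglia, averaged 48.6 ± 4.95 against 10.9 at 8 months (4.47-fold) and 45.4 ± 2.27 against 11.2 at 11 months (4.06-fold). The sum of 7 microglial markers in the 8-month controls was 18.1 to 32.7, against 165.0 to 204.6 in spinal cord. Kcnu1 (3.07 against 1.02) and Kcnk5 (2.08 against 0.761) were low in level, and Kcnk5 reached 1 only in oligodendrocytes. Lower than in spinal cord were 92 channel genes at 8 months, against 32.7% of all genes, and 92 at 11 months, against 35.3%.

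**Figure D2:**
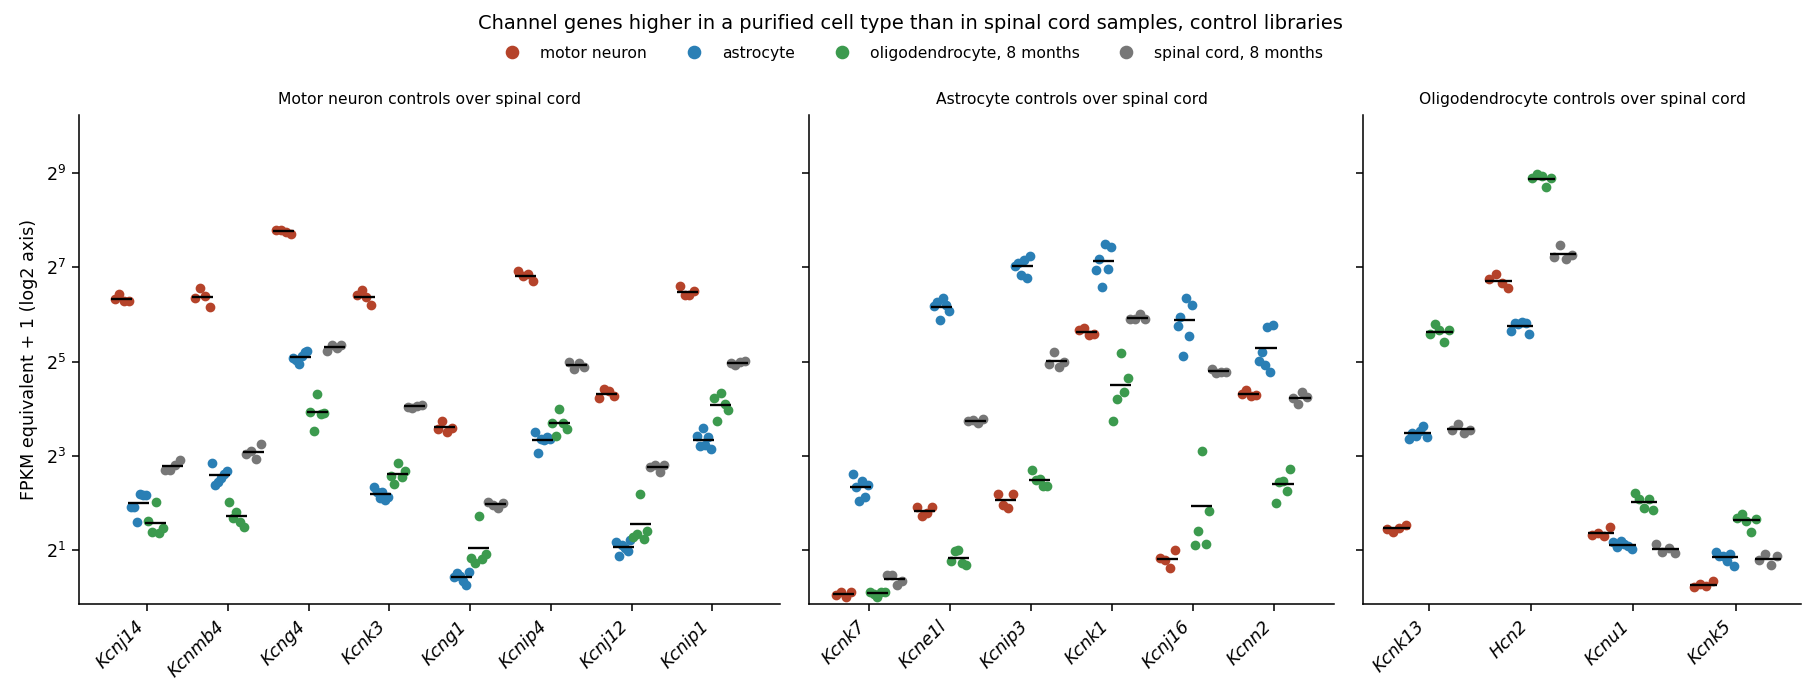
Level in each control library (FPKM equivalent plus 1, log2 axis) of 8 channel genes higher in motor neurons, 6 in astrocytes and 4 in oligodendrocytes than in spinal cord. Each point is a library of motor neurons, astrocytes, 8-month oligodendrocytes or 8-month spinal cord, and each line is a group mean. Kcnj14, Kcnmb4 and Kcnk3 lie near 80 in motor neurons, and Hcn2 at 414 to 504 in oligodendrocytes, above its other groups.

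The promoters of 6 of these cell-type-enriched genes are shown because they are the starting points of the transcripts that set the cell types apart. The RefSeq promoter table used here (build GRCm38.p6) has entries for 101 of the 138 genes, and Kcnj14 is not among them. The 250 bases before the start of transcription are given 5′ to 3′ in the direction of the gene, with each CG dinucleotide in capitals. For each cell type they are the 2 genes with the largest ratio over spinal cord among those with a single start in that table, and the ratio of Kcnk7 is over a level near 0.
Kcng4, higher in motor neurons, chr8:119635681-119635930, minus strand: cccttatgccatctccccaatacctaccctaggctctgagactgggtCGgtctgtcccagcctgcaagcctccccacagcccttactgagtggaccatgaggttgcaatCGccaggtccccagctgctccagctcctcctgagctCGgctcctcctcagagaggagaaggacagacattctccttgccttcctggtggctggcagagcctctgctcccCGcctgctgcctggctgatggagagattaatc
Kcnmb4, higher in motor neurons, chr10:116473524-116473773, minus strand: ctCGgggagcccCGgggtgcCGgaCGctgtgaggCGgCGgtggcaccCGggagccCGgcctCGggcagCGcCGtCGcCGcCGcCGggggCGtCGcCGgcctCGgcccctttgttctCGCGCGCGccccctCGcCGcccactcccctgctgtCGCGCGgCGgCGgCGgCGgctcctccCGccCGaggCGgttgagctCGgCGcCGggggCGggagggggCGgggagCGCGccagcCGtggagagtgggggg
Kcnk7, higher in astrocytes, chr19:5704221-5704470, plus strand: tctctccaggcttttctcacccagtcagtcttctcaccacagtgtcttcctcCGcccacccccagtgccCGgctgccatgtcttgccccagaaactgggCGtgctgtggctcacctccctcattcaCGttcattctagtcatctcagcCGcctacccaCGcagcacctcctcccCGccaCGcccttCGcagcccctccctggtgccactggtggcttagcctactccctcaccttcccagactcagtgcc
Kcne1l, higher in astrocytes, chrX:142306199-142306448, minus strand: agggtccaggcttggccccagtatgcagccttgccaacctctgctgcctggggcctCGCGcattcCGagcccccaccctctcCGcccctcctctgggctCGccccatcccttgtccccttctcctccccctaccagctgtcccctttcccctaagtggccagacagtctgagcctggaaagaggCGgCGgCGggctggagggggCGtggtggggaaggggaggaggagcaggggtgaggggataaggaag
Kcnk13, higher in oligodendrocytes, chr12:99964249-99964498, plus strand: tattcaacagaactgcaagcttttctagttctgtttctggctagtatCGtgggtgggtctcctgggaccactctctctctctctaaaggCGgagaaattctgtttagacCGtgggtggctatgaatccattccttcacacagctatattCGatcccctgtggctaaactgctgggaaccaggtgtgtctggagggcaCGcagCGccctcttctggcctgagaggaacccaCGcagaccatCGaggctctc
Hcn2, higher in oligodendrocytes, chr10:79716384-79716633, plus strand: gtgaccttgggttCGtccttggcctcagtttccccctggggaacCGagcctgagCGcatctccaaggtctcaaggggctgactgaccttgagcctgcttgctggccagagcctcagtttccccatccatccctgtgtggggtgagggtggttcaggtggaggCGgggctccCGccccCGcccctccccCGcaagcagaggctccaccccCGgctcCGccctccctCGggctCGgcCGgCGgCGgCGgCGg
The 6 stretches differed in CG content. Kcnmb4 held 43 CG dinucleotides, a number reached by 0.712% of the 32851 promoters in the RefSeq table, Hcn2 held 16 (25.4%), Kcne1l and Kcnk7 9 each (40.3%), Kcnk13 8 (43.0%) and Kcng4 4 (62.2%). The median was 8 over 137 promoters of the channel genes and 6 over all promoters. The letters ACAAAG or their reverse complement CTTTGT, a core recognised by SOX factors, stood in 13.9% of the channel promoters and in 16.5% of all promoters. Of the 6 stretches shown, that of Kcnmb4 held these letters.

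In motor neurons of SOD1 G37R mice at onset, channel transcripts were lower more often than higher. Of 86 channel genes tested, 14 fell and 3 rose at an adjusted p under 0.05, and 41 had an unadjusted p under 0.05. Over all 12303 genes tested 12.9% were called, 6.49% higher and 6.37% lower. The median log2 change was -0.10 over the channel genes and 0.01 over all genes, and 55 of the 86 lay below 0. In bulk samples of this kind, fewer cells of a type and less RNA per cell cannot be told apart. The motor neuron markers summed to 1956 to 2389 in G37R libraries, against 2194 to 2569 in controls.

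Inward rectifiers and the modulatory Kv subunits stood among the genes that fell. Kcnj14, the motor-neuron-enriched inward rectifier, had 66.0, 62.3, 52.4 and 58.8 FPKM equivalents in G37R libraries, against 79.2, 84.8, 77.0 and 77.0 in controls (log2 change -0.41, SE 0.07, adjusted p = 0.0102). Every G37R library lay below every control. Kcns3, a silent subunit that modifies Kv2 channels, had 8.21, 7.49, 7.59 and 7.87 in G37R libraries, against 11.9, 10.8, 10.9 and 10.9 in controls (-0.46, SE 0.06, adjusted p = 0.00387). The groups did not overlap, and these 2 genes passed the threshold in all 17 other settings tried, those without 1 library included. Kcng1, another silent subunit, had 9.13, 8.74, 7.03 and 8.08 in G37R libraries, against 10.8, 12.3, 10.4 and 11.03 in controls (-0.39, SE 0.08, adjusted p = 0.0175). Kcnj3, a G-protein-gated inward rectifier, had 10.1, 13.3, 9.77 and 12.6 in G37R libraries, against 13.9, 15.02, 15.4 and 15.6 in controls (-0.37, adjusted p = 0.0303). Kcng4, the most abundant silent subunit, had 196, 214, 145 and 162 in G37R libraries, against 222, 220, 214 and 209 in controls, and did not pass (adjusted p = 0.0992).

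The largest log2 changes among the calls were those of a leak channel and a calcium channel. Kcnk9, an acid-sensitive leak channel, had 10.2, 11.7, 8.97 and 12.003 FPKM equivalents in G37R libraries, against 12.7, 22.3, 24.0 and 22.9 in controls. The G37R libraries lay below all controls, and control library 1 lay far closer to them than the other controls (-0.84, SE 0.20, adjusted p = 0.036). Cacna1d, the L-type pore Cav1.3, which carries persistent inward current in motor neurons, was low in both groups, at 1.84, 1.16, 0.532 and 2.01 in G37R libraries, against 2.40, 2.91, 2.95 and 3.20 in controls (-0.74, SE 0.20, adjusted p = 0.044). The groups did not overlap, but the size at this level depended on the pseudocount: it was -1.14 with 0.1 (adjusted p = 0.0723) and -0.31 with 5 (adjusted p = 0.0278). Kcnk3, the related leak channel, averaged 73.1 ± 8.87 in G37R and 82.2 ± 7.68 in controls (n = 4 each) and did not pass (-0.17, SE 0.09, adjusted p = 0.235).

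Members of the Cacng family moved in opposite directions. Cacng2, also called stargazin, which accompanies AMPA receptors, had 36.7, 39.1, 26.998 and 30.3 in G37R libraries, against 42.3, 47.5, 47.8 and 46.4 in controls (-0.47, SE 0.10, adjusted p = 0.0232). Cacng3, its close relative, had 26.2, 26.5, 28.8 and 27.3 in G37R libraries, against 24.4, 22.9, 19.7 and 19.6 in controls (0.32, SE 0.07, adjusted p = 0.0233). Both pairs of groups were without overlap, one downwards and one upwards. The other 2 genes that rose were the calcium channel beta subunit Cacnb3 (30.6 ± 1.27 in G37R, 26.9 ± 1.02 in controls, n = 4 each) and the sodium channel Scn2a1 (2.83 ± 0.179 and 2.28 ± 0.0765), at log2 changes of 0.18 and 0.22 (adjusted p = 0.0467 and 0.0468). Cacnb3 lost its call whichever 1 library was left out, and so did Scn2a1, except when it was G37R library 2. Kcnma1, the BK pore, averaged 3.02 ± 0.581 in G37R and 4.08 ± 0.271 in controls (-0.35, adjusted p = 0.0478), while its partner Kcnmb4 averaged 86.7 ± 9.79 and 81.8 ± 9.77 and did not pass (adjusted p = 0.568). The remaining calls were all lower, between -0.32 and -0.19 on the log2 scale, and included the leak channel Kcnk2, the inward rectifier Kcnj12, Kcnh5, the M-current gene Kcnq5 and the calcium channel subunit Cacna2d3.

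**Figure D3:**
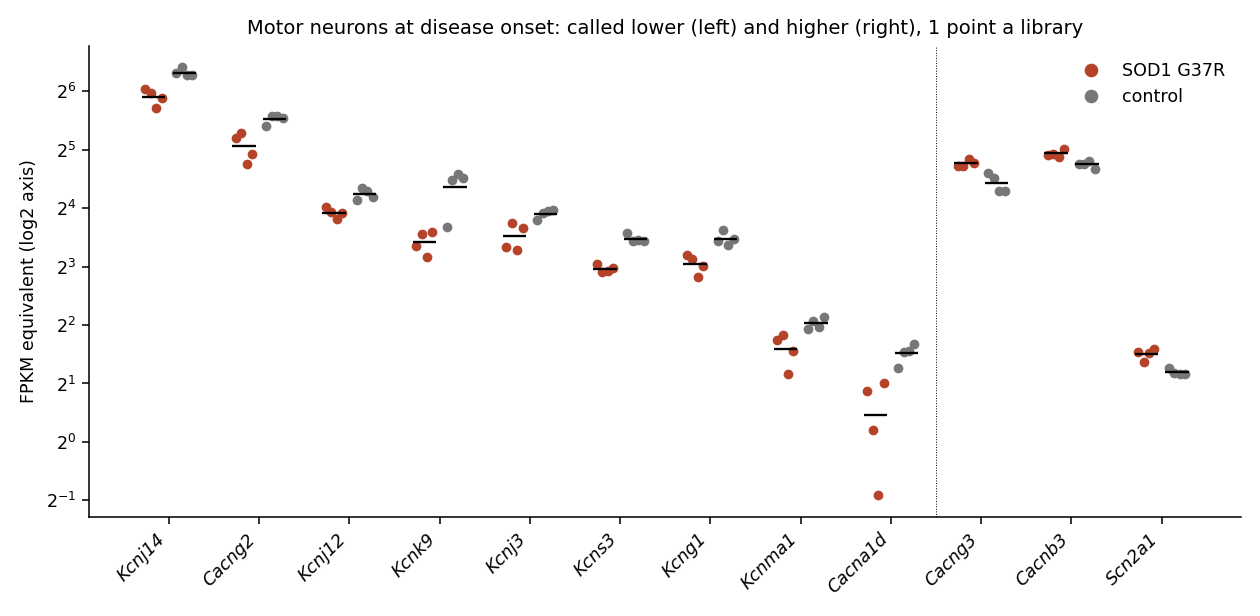
Level in each motor neuron library (FPKM equivalent, log2 axis) of 9 channel genes called lower and 3 called higher in SOD1 G37R than in control, with 1 point a library and a line at each group mean. Kcnj14 lies at 52.4 to 66.0 in G37R libraries, below all controls, and control library 1 of Kcnk9 is at 12.7, away from the other 3 controls.

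Over all genes 12.9% were called and 53.4% had a log2 change above 0, which the lists are set beside. Grouped by site of action, all 9 tested members of a list of somatodendritic motor neuron channels (such as Kcnn2, Hcn2 and Kcnk3) had log2 changes below 0, with 2 called lower, Kcnk9 and Cacna1d. The summed level of that list was 208.6 to 236.4 in G37R libraries, against 238.7 to 280.9 in controls. Most of that sum lay in Hcn2 and Kcnk3 (means of 104 and 82.2 in controls), neither of which was called. Of 11 genes of the axon initial segment and nodes, 1 rose (Scn2a1) and 1 fell, and of 10 nerve terminal channels 2 fell, Kcnma1 and Cacna2d3. The list of glial potassium channels holds Kcnk2, which was lower in glial controls than in motor neuron controls. It averaged 15.98 in motor neurons, 8.698 in 8-month spinal cord, 5.66 in astrocytes and 2.33 in 8-month oligodendrocytes. Of 4 tested channels of this list 1 fell, Kcnk2. Of 21 measured partners of these channels (anchors, auxiliary proteins, pumps and transporters), 2 rose, the anchor Ank3 (0.49, adjusted p = 0.0248) and the secreted protein gene Lgi1 (0.48), and 2 fell, among them the Kv4 auxiliary subunit Dpp10 (-0.27).

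Glial transcripts moved with these groups, in libraries 3 and 4 most of all. The 7 astrocyte markers summed to 372.3, 360.6, 655.6 and 650.2 in G37R libraries, against 240.7 to 291.4 in controls. The 7 oligodendrocyte markers summed to 574.7, 592.6, 964.6 and 998.3 in G37R libraries, against 454.8 to 507.5 in controls, and the 7 microglial markers to 14.9, 15.5, 30.9 and 34.5, against 4.8 to 6.9. The 5 markers of other neurons summed to 74.5, 82.0, 128.8 and 136.4 in G37R libraries, against 56.3 to 72.1 in controls. Without G37R libraries 3 and 4, an alternative added after the data were seen, Cacna1d, Kcnj14 and Kcns3 passed, and all 17 genes kept the direction of their change. The change of Cacng2 was then -0.27 (adjusted p = 0.0561) and that of Kcnma1 -0.19 (adjusted p = 0.21). Leaving out 1 library at a time gave 2 to 22 calls: 9, 2, 3 and 4 without control libraries 1 to 4, and 20, 22, 6 and 6 without G37R libraries 1 to 4. Of 17 other settings Kcng1 kept its call in 15, Cacng2 in 12, Kcnj3 in 11, Cacng3 in 10, Kcnk9 in 9 and Cacnb3 in 3. Of 16 settings that tested them, Cacna1d kept its call in 8, and Kcnma1 and Scn2a1 in 5 each.

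In astrocytes of SOD1 G37R mice at onset, 1 of 70 tested channel genes rose and 0 fell, against 2.34% of all genes called, and 8 had an unadjusted p under 0.05. The gene is Kcnj8, the Kir6.1 pore of ATP-sensitive potassium channels, which is best known from mural cells. It had 3.00, 2.17, 2.10 and 2.01 FPKM equivalents in G37R libraries, against 0.762, 1.18, 0.365, 0.977, 1.51 and 0.796 in controls (0.80, SE 0.15, adjusted p = 0.0188). All G37R libraries lay above all controls, at a low level. Without control library 1 the adjusted p was 0.054, and the change was 1.31 with a pseudocount of 0.1 and 0.30 with 5. Markers of endothelial and mural cells (6 genes) summed to 2.1 to 4.6 in G37R libraries and to 1.9 to 4.4 in controls, against 73.7 to 96.7 in 8-month spinal cord controls. Of these markers only Acta2 and Pdgfrb passed the filter on low values in astrocytes. Microglial markers summed to 65.1 to 76.0 in G37R astrocyte libraries, against 22.8 to 36.2 in controls, and their part in the result was not tested.

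The potassium channels that lead the astrocyte profile did not pass. Kcnj10 had 174, 270, 188 and 226 in G37R libraries, against 146 to 309 with a median of 234 in controls (-0.13, SE 0.20, adjusted p = 0.763). The G37R libraries lay within the range of the controls. Kcnj16 averaged 51.3 ± 16.6 in G37R and 57.6 ± 17.1 in controls, Kcnk1 179 ± 49.1 and 139 ± 31.8, Kcnip3 110 ± 17.2 and 130 ± 15.99, and Kcne1l 80.3 ± 17.3 and 70.6 ± 7.66 (n = 4 and 6, adjusted p from 0.358 to 0.761). The SE of the log2 change was 0.24 for Kcnj16 and 0.20 for Kcnj10 and Kcnk1, so small changes of these genes were not detectable here.

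Set against each other, the G37R effect in motor neurons minus that in astrocytes passed the threshold for 1 of 66 channel genes tested in both, against 2.83% of all genes, with 11 at an unadjusted p under 0.05.

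In oligodendrocytes at 8 months, limma called 0 of 76 tested channel genes between SOD1 G37R and control, and 2 had an unadjusted p under 0.05. Over all genes 0.109% were called. Each alternative setting tried also gave 0. The smallest p-values belonged to Kcnab3, Cacna2d1 and Scn2b. Kcnab3, a beta subunit of Kv1 channels, had 39.1, 45.9, 37.9 and 38.2 in G37R libraries, against 35.3, 31.4, 33.7, 35.9 and 36.5 in controls, with no overlap and a log2 change of 0.21 (SE 0.08, adjusted p = 0.386). Hcn2 averaged 420 ± 38.8 in G37R and 471 ± 34.4 in controls (n = 4 and 5, adjusted p = 0.511).

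At 11 months, 41 of 78 tested channel genes rose and 5 fell in SOD1 G37R oligodendrocytes, and 50 had an unadjusted p under 0.05. Over all 11733 genes 49.0% were called, 26.1% higher and 22.9% lower. The median log2 change was 0.34 over the channel genes and 0.00 over all genes, with 66 of 78 above 0. All tested members of the Kcnab (3), Kcnc (4) and Cacna2d (3) subfamilies and of the sodium channel pores (3) rose, and the genes that fell were Hcn2, Kcnj10, Kcna6, Kcnq3 and Kcnu1.

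The Kcnab genes, which encode the cytoplasmic beta subunits of Kv1 channels, showed the largest rises among the calls. Kcnab2 had 218, 224 and 229 FPKM equivalents in G37R libraries and 143, 154 and 161 in G85R libraries, against 119, 97.3, 111, 150 and 141 in controls. G37R lay above every control, and G85R overlapped them (G37R 0.87, SE 0.13, adjusted p = 0.00152, and G85R 0.32, SE 0.13, adjusted p = 0.13). Kcnab3 had 58.7, 74.7 and 71.1 in G37R libraries and 47.8, 47.7 and 50.6 in G85R libraries, against 36.4, 31.2, 34.2, 40.9 and 41.6 in controls. Both mutants lay above the controls without overlap, at 0.87 (SE 0.11, adjusted p = 0.00113) for G37R and 0.40 (SE 0.11, adjusted p = 0.0911) for G85R. Kcnab1 averaged 71.1 ± 7.90 in G37R and 54.3 ± 5.06 in G85R, against 41.0 ± 7.25 in controls (n = 3, 3 and 5), with 0.79 (adjusted p = 0.00222) for G37R. The summed level of the 3 Kcnab genes was 339.2 to 376.0 in G37R and 250.3 to 264.6 in G85R, against 160.6 to 242.1 in controls.

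All 3 tested sodium channel pores rose, as did the beta subunits Scn2b, Scn3b and Scn4b. Scn1a, the pore Nav1.1, had 18.2, 24.4 and 26.6 in G37R libraries and 21.5, 17.9 and 18.2 in G85R libraries, against 11.6, 11.1, 13.5, 15.7 and 16.5 in controls (G37R 0.71, SE 0.15, adjusted p = 0.00444). Scn8a, the nodal pore Nav1.6, had 16.3, 18.7 and 20.4 in G37R libraries and 15.4, 14.7 and 14.5 in G85R libraries, against 9.39, 8.89, 10.8, 12.5 and 14.0 in controls (G37R 0.70, SE 0.13, adjusted p = 0.00291). In both genes each mutant library lay above each control. Scn2b had 16.1, 19.8 and 16.9 in G37R libraries and 13.7, 12.9 and 12.6 in G85R libraries, against 9.50, 10.3, 10.2, 12.3 and 12.97 in controls (G37R 0.63, adjusted p = 0.00193). Of the calcium channel genes, the T-type pore Cacna1i (0.65, adjusted p = 0.00393) and the alpha2delta subunit Cacna2d1 (0.66, adjusted p = 0.0234, with overlap) rose, as did the Kv4 partners Kcnip1 (0.54), Kcnip3 (0.55) and Kcnip4 (0.51).

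Hcn2, the most abundant channel gene of control oligodendrocytes, fell. It had 275, 219 and 239 FPKM equivalents in G37R libraries and 273, 352 and 315 in G85R libraries, against 384, 376, 390, 360 and 417 in controls (G37R -0.66, SE 0.10, adjusted p = 0.0018, and G85R -0.30, SE 0.10, adjusted p = 0.106). Every library of either mutant lay below every control. Kcnj10, the inward rectifier Kir4.1, had 104, 81.9 and 92.8 in G37R libraries and 123, 106 and 113 in G85R libraries, against 135, 120, 126, 157 and 157 in controls. G37R did not overlap the controls (-0.57, SE 0.11, adjusted p = 0.00367), and G85R did, with one library between the 2 lowest controls (-0.27, adjusted p = 0.134). Astrocyte markers, whose cells share this channel, summed to 3084 to 3847 in G37R and 3338 to 3899 in G85R, against 3368 to 3626 in controls, a sum carried by Glul. Of the 7, Gfap and Aldh1l1 rose in G37R and Glul fell, with a median log2 change of 0.50, and in G85R 0 were called and 6 of 7 lay above 0 (median 0.53). Their part in the result was not tested. Kcna6, a Kv1 pore, had 40.4, 37.3 and 38.0 in G37R libraries and 42.1, 49.4 and 50.2 in G85R libraries, against 52.3, 52.3, 50.4, 43.6 and 47.4 in controls. G37R lay below every control, and G85R overlapped them (G37R -0.34, SE 0.08, adjusted p = 0.00872). Its neighbours of the Kv1 family differed: Kcna2 rose (22.6 ± 2.99 in G37R, 15.7 ± 2.73 in controls, 0.50), and Kcna1 averaged 47.0 ± 2.46 and 53.5 ± 7.40 without passing (adjusted p = 0.195). Kcnq3 (1.73 ± 0.348 in G37R, 2.65 ± 0.382 in controls, -0.42) and Kcnu1 (1.97 ± 0.125 and 2.82 ± 0.508, -0.35) were low and also fell.

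**Figure D4:**
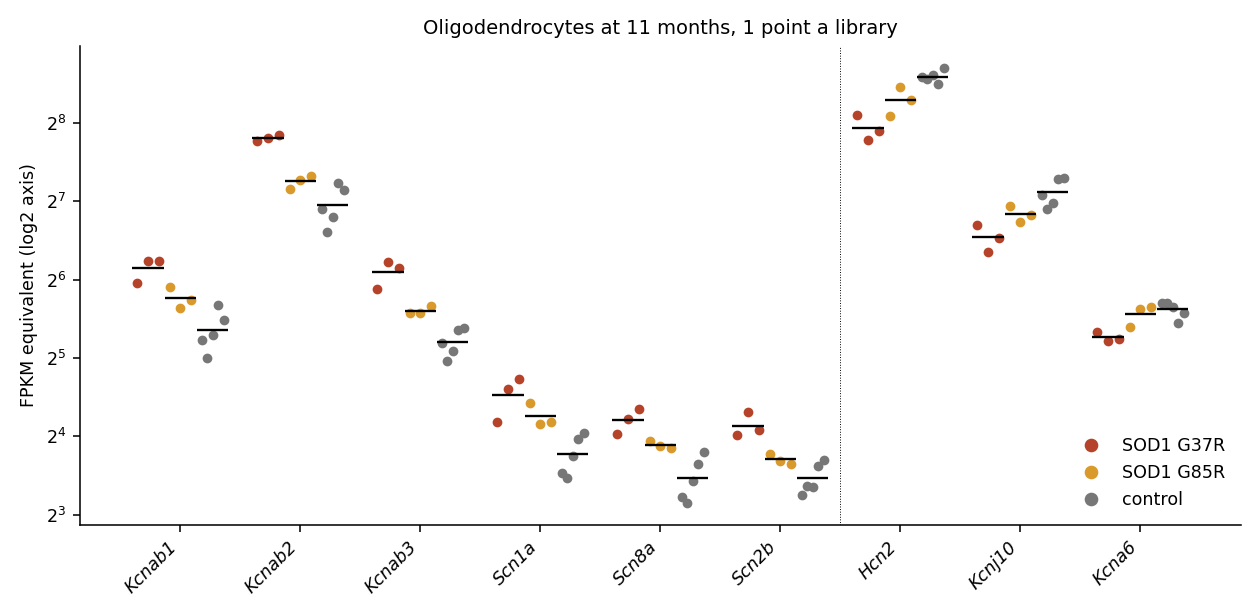
Level in each 11-month oligodendrocyte library (FPKM equivalent, log2 axis) of 6 channel genes called higher (left of the dotted line) and 3 called lower (right) in SOD1 G37R than in control, with SOD1 G85R beside them. Each point is a library and each line a group mean. Kcnab2, for instance, averages 224 in G37R and 153 in G85R, against 124 in controls.

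Kcnk13, singled out after its values were seen, was listed at 0 in G37R library 1 and had 27.5 and 27.4 in the other 2, with 28.2, 38.8 and 41.5 in G85R libraries, against 47.2, 48.4, 44.5, 43.5 and 43.4 in controls. A value of 0 in these tables can be a failed estimate. With all libraries and the pseudocount of 1 the gene did not pass limma in G37R (-2.31, SE 0.99, adjusted p = 0.080). With a pseudocount of 5 it passed (-1.53, adjusted p = 0.0414), and with 0.1 it did not (-3.42, adjusted p = 0.119). Without G37R library 1 it also passed (-0.71, SE 0.13, adjusted p = 0.00215).

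The channel genes were also split by their level in 8-month oligodendrocyte controls, which are other libraries. This split was made after the values were seen, and it is a description. Of the 66 tested channel genes that were at least 2-fold lower in 8-month oligodendrocyte controls than in spinal cord controls, 37 rose (56.1%) and 1 fell at 11 months, against 52.9% and 1.87% of the 2939 genes of that kind in the whole table. Of the 4 that were higher, 0 rose and 2 fell, Hcn2 and Kcnu1, against 1.86% and 60.1% of 1825 genes. Of the 8 that were neither, 4 rose and 2 fell, Kcnj10 and Kcna6, against 21.2% and 22.0% of 6969 genes. The median log2 change was 0.36 over the 66 channel genes and 0.38 over the 2939 genes.

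Neuronal and microglial markers moved with the same groups. The 5 pan-neuronal markers summed to 3308, 3816 and 4407 in G37R libraries and to 2576 to 3641.5 in G85R libraries, against 1892 to 2313 in controls. The 7 motor neuron markers summed to 84.1 to 113.4 in G37R and 79.5 to 119.9 in G85R, against 56.8 to 71.8 in controls, and the 5 markers of other neurons to 195.8 to 300.4 and 194.5 to 240.6, against 119.8 to 191.8. Microglial markers summed to 65.5 to 144.5 in G37R and 27.8 to 239.2 in G85R, against 23.5 to 36.1 in controls. Oligodendrocyte markers summed to 21318 to 28900 in G37R and 25366 to 32400 in G85R, against 35253 to 38414 in controls 2 to 5 and 15751 in control 1, where the myelin gene Mbp is listed at 0. Their part in the channel results was not tested. Channel partners changed alongside: of 21 measured, 12 rose, led by Fgf13 (0.76), the neuronal chloride exporter Slc12a5 (0.74) and Atp2b2 (0.68), and 3 fell, led by the chloride importer Slc12a2 (-0.50), which averaged 58.3 ± 2.32 in G37R and 83.1 ± 7.22 in controls. Over all genes 26.1% rose and 22.9% fell.

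By site of action, 8 of 11 genes of the axon initial segment and nodes rose and 1 fell (Kcnq3), with a median log2 change of 0.50 and a summed level of 587.5 to 640.9 in G37R, against 404.8 to 535.0 in controls. Of 10 nerve terminal channels 6 rose and 0 fell (median 0.49). Of 7 somatodendritic channels 3 rose and 1 fell, Hcn2. Of 4 tested channels of the glial potassium channel list, Kcnk1 rose and Kcnj10 fell. These counts stand beside 26.1% of all genes higher, and 52.9% higher among genes low in 8-month oligodendrocyte controls. Without G37R library 2 the 46 calls became 21, and without G37R library 3 they became 22, all of them among the 46. They numbered 46 without G37R library 1, 49 without control library 5 and 31 to 46 without 1 of the other controls. The Kcnab genes, Scn1a, Scn8a, Scn2b, Hcn2, Kcnj10 and Kcna6 passed in each setting tried.

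The SOD1 G85R comparison at 11 months shares its controls with the G37R one. limma called 0 of 78 channel genes, against 0.00852% of all genes, while 22 had an unadjusted p under 0.05 and 61 of 78 lay above 0 (median 0.17). Each other setting also gave 0. The smallest p-values were those of Kcnab3, Kcnd2 and Cacng7. Kcnd2, a Kv4 pore, averaged 6.24 ± 0.767 in G85R and 4.16 ± 0.788 in controls (n = 3 and 5), without overlap (0.50, SE 0.15, adjusted p = 0.0978). Cacng7 averaged 41.0 ± 1.25 and 49.6 ± 4.97, also without overlap (-0.27, SE 0.08, adjusted p = 0.0978).

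Set directly against G37R, G85R oligodendrocytes had 0 of 78 channel genes past the threshold, against 0.0426% of all genes, with 15 at an unadjusted p under 0.05. With libraries weighted by their quality, limma called 23, of which 20 were lower in G85R. The smallest unadjusted p-values were those of Kcnip1, Kcnab3 and Kcnab2. Kcnip1 had 13.7, 15.5 and 14.1 in G85R libraries, against 19.3, 20.6 and 19.3 in G37R libraries, without overlap (-0.43, adjusted p = 0.19).

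The G37R effect differed between 11 and 8 months for 10 of 76 channel genes (13.2%), against 14.3% of all genes, with 20 at an unadjusted p under 0.05. Higher at 11 than at 8 months were the effects on Kcnab2 (0.72, SE 0.15, adjusted p = 0.0106), Kcnab3 (0.66), Kcnab1 (0.65), Kcnip1 (0.60), Kcnip3 (0.59), Kcnip4 (0.57), Cacng3 (0.55), Cacnb3 (0.45) and Scn2b (0.45). The effect on Hcn2 was lower at 11 months (-0.49, SE 0.13, adjusted p = 0.0249). The 10 held all 3 Kcnab and 3 of the 4 Kcnip genes. This is a description only, since the share called was not above that of all genes. The 8-month libraries are all male and the 11-month ones of both sexes. The 2 ages are also separate tables, normalized separately. At 8 months 4 channel genes were listed at 0 in every library, and at 11 months 18. Age, sex make-up and table cannot be told apart. Without G37R library 1, 2 or 3 of 11 months the contrast gave 18, 2 and 5 calls, and without G37R library 3 of 8 months 6, with Kcnab2 and Kcnab3 past the threshold each time.

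In the spinal cord samples the channel genes changed little. At 8 months 0 rose and 1 of 102 fell, against 2.17% of all genes called, with 28 at an unadjusted p under 0.05 and 79 of 102 below 0 (median -0.05, against -0.01 over all genes). The gene is Kcna2, a Kv1 pore that flanks the nodes, with 69.998, 67.2, 64.7 and 65.7 FPKM equivalents in G37R libraries, against 74.7, 74.8, 74.9 and 74.98 in controls (-0.16, SE 0.03, adjusted p = 0.033). The groups did not overlap, and the SD of the controls was 0.137 (n = 4). Without any 1 library except G37R library 1 it no longer passed (adjusted p from 0.0674 to 0.103), and without G37R library 1 the calls numbered 6. With libraries rescaled by their median ratio its adjusted p was 0.0505, and with plain moderation 0.0514. None of the 11 axon initial segment and node genes had a log2 change above 0 (summed level 1036 to 1111 in G37R, 1104 to 1155 in controls), nor did any of the 10 nerve terminal genes (443.0 to 462.2, against 469.2 to 489.8). Over all genes 43.4% lay above 0, and of these 21 genes 1 was called, Kcna2. Kcnk6, a leak channel, averaged 2.25 ± 0.474 in G37R and 1.28 ± 0.219 in controls without overlap and did not pass (0.50, adjusted p = 0.0598). Microglial markers summed to 284.4 to 461.9 in G37R, against 165.0 to 204.6 in controls.

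At 11 months limma called 0 of 101 channel genes in spinal cord, against 0.0217% of all genes, with 4 at an unadjusted p under 0.05 and 0 calls in each other setting. The smallest p-values were those of Cacnb3 (14.6 ± 0.445 in G37R, 12.8 ± 0.822 in controls, n = 3 each), Cacna1i (7.86 ± 0.223 and 6.89 ± 0.322) and Kcnj16 (24.3 ± 0.795 and 26.9 ± 0.888), each with an adjusted p of 0.892. Control library 1 stood apart, with astrocyte markers at 3692 and microglial markers at 883.5.

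Further lists gave few testable genes. Of 4 potassium channels known from microglia, 1 passed the filter in each purified cell table and 3 in spinal cord, and 0 were called in any comparison. In astrocytes and oligodendrocytes it was Kcnk13, which was itself higher in oligodendrocyte controls than in spinal cord (48.6 against 10.9 at 8 months). There the list cannot stand for microglia. Of 2 vascular potassium channels, 1 passed in each purified table, and Kcnj8 in astrocytes was the one call. Of 6 channels of sensory neurons and muscle, at most 1 passed in a table, with 0 calls. The summed level of 3 markers of oligodendrocyte precursors was 4.17 to 8.13 in 11-month G37R oligodendrocytes and 3.41 to 10.7 in G85R, against 2.66 to 4.87 in controls.

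**Figure D5:**
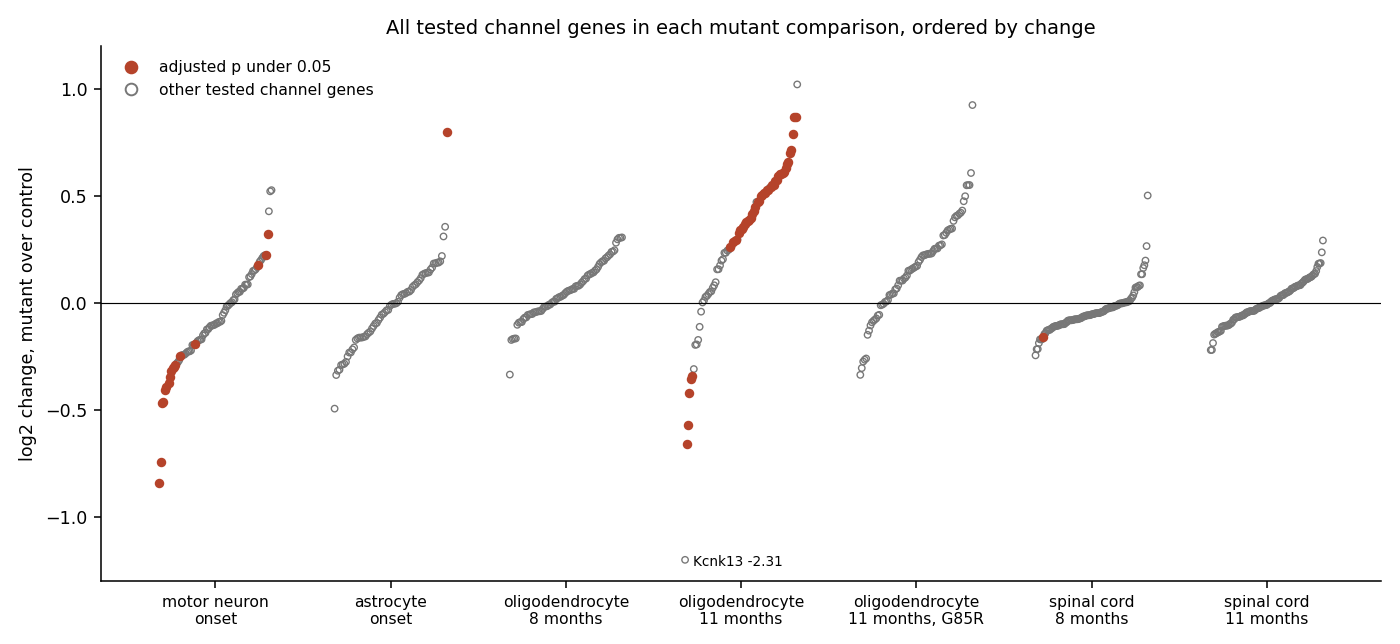
Change of every tested channel gene in each of 7 mutant comparisons (log2 change, mutant over control, vertical axis), with genes ordered by change within a comparison (horizontal axis). Filled points passed an adjusted p of 0.05, and Kcnk13 at -2.31 is drawn at the lower edge. Most motor neuron points lie below 0 and most 11-month oligodendrocyte points above it.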

How the data were processed

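Poly(A) RNA libraries were read as 50 nt single ends. Reads were processed with TopHat2 2.0.8b, Cufflinks and Cuffdiff on build mm9, per the submitters' processing notes, which give no settings. The authors deposited FPKM in the 11-month spinal cord table. In the other 5 tables the authors deposited a signal on a raised scale, which was divided by 16774, the median ratio of 8-month to 11-month spinal cord over 13810 genes, to give FPKM equivalents. For the purified cell tables that factor is an assumption, and the minimum and pseudocount rest on it. Each comparison stayed within a table. Values were transformed to log2(value + 1), which understates changes of low genes, and a gene was tested where its mean over a table reached 1, which kept 70 to 102 of the 138 channel genes. The rest were left out. Differences were tested by limma 3.58.1 under R 4.3.3 (trend and robust moderation, 2-sided), with Benjamini-Hochberg adjustment over all tested genes of a comparison and a threshold of 0.05. The 11-month oligodendrocyte contrasts came from 1 fit of 3 groups. Differences between effects were contrasts over genes kept in both tables. The tables hold no read totals, so depth is unknown.

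Genes named were the 8 highest control means per cell type, the 8 largest control ratios over spinal cord, and every call, or the 8 largest rises and 8 largest falls where more than 16 were called, and otherwise the 3 smallest p. Function, partner and marker lists came from textbook knowledge, and list members were named by the size of their change. Genes and lists were chosen with earlier results of these data known. Of 22 partners 21 were matched. Some genes that the naming rule covers are not reported here. The fit was tested on simulated data. Alternatives covered the pseudocount, the filter, rescaling, plain moderation, library weights, sex, a replicate block and leaving out each library. Replicate numbers did not pair libraries. Analyses used Python 3.11.15.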

Additional observations from a re-analysis of the deposited data

Results flagged for a closer look

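Of 39 pairs of a called gene and a group of 4 to 6 libraries that were checked, 4 held a library far from the rest. The rate by chance, about 1 in 20, is nominal. The genes were chosen by their call, and most of the 4 fell in 1 library, so the count is a description. In motor neuron control library 1, Kcnk9 lay at 12.7 FPKM equivalents, against 22.3 to 24.0 in the other 3 controls. In the same library Scn2a1 lay at 2.39, against 2.23 to 2.25, and Kcns3 at 11.9, against 10.8 to 10.9. In astrocyte G37R library 1, Kcnj8 lay at 3.00, against 2.01 to 2.17 in the other 3 G37R libraries.

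The G37R effect differed between ages in oligodendrocytes, by a test of the difference itself, for 10 of 76 channel genes. That is 13.2%, against 14.3% of all genes. The difference, 11 months minus 8 months on the log2 scale, was 0.72 for Kcnab2, 0.66 for Kcnab3, 0.65 for Kcnab1, 0.60 for Kcnip1, 0.59 for Kcnip3, 0.57 for Kcnip4, 0.55 for Cacng3, 0.45 for Cacnb3, 0.45 for Scn2b and -0.49 for Hcn2. Kcnab2 and Kcnab3 kept their calls in all 25 other settings, Hcn2 in 21, Cacng3 in 17, Cacnb3 in 16 and Scn2b in 13. Age, sex make-up and table cannot be told apart in this contrast.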

How the results depend on the processing

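No named gene reversed its direction: of 919 values for 49 results, 780 kept their side of the threshold, 136 lost the call and 3 gained it. The count of channel genes called in motor neurons (17) was 9 with no filter, 10 with library weights, 3 without G37R libraries 3 and 4, and 2 to 22 leaving out 1 library. In astrocytes (1 call) it was 2 with no filter, 0 with a mean of at least 5, which drops Kcnj8, and 0 to 2 leaving out 1 library (0 without control 1, 2 without control 5). In 11-month oligodendrocytes G37R gave 29 calls with a mean of at least 5, which tests fewer genes, and 21 to 49 leaving out 1 library. G85R against G37R (0 calls) gave 23 with library weights and 0 to 1 leaving out 1 library (1 without G85R library 1). In 8-month spinal cord (1 call) rescaled libraries gave 0, plain moderation 0, library weights 3 and leaving out 1 library 0 to 6. Motor neurons minus astrocytes (1 call) gave 3 with a pseudocount of 5, 2 with no filter, 3 with library weights and 1 to 4 leaving out 1 library (4 without astrocyte G37R library 4). The 11-month minus 8-month contrast (10 calls) gave 38 with library weights and 2 to 18 leaving out 1 library. Higher than spinal cord at 3-fold were 7 genes in motor neurons (12 at 2-fold) and 3 in astrocytes (6 at 2-fold, 4 to 6 leaving out 1 library), and 2 in oligodendrocytes with a mean of at least 5 (4 with a mean of at least 1). The causes were not tested.

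With the replicate number as a block, the counts were 11 in motor neurons, 0 in astrocytes, 51 for G37R in 11-month oligodendrocytes, 0 in 8-month spinal cord, 0 for motor neurons minus astrocytes and 5 for 11 minus 8 months, and 0 for the other comparisons. Same-numbered libraries correlated in their deviations at r = -0.27 to 0.35, so the numbers are not read as pairs. Levels across tables carry separate normalizations, a 0 can be a failed estimate, and depth is unknown.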
